A study of Mus musculus with 2 samples.

Results

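Autophagy genes were examined in the total RNA of hematopoietic stem cells (HSC) of the mouse, which reside in bone marrow and replenish all blood lineages. The set held 38 genes named by symbol, from the kinase complex that starts an autophagosome to the receptors that load it, and all 38 were found among 42462 annotated genes, of which 21474 were protein-coding. The cells came from adult C57BL/6J males, 5 to 6 weeks of age, with no treatment or engineered allele in the labels, and formed 1 group of 2 biological replicates. Each library was made from 100 ng of RNA after removal of ribosomal RNA. The labels give the replicates separate biosamples and 1 shared donor entry, so the spread between them may be partly technical, and the sources used here do not give the antigens on which the cells were gated.

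Macroautophagy encloses cytoplasm in a double membrane and delivers it to the lysosome. The ULK kinase complex and the class III phosphatidylinositol 3-kinase start the membrane, ATG9, ATG2 and WIPI proteins supply it with lipid and mark its site, and a pair of ubiquitin-like conjugation systems attach the small ATG8 proteins (LC3 and GABARAP) to phosphatidylethanolamine, the step called lipidation. Cargo receptors bind ubiquitinated or damaged material on one side and lipidated ATG8 on the other, and transcription factors of the MiT/TFE family drive many of the genes. In mouse blood stem cells, loss of core genes such as Atg5, Atg7, Atg12 or Rb1cc1 is known to impair self-renewal. RNA levels do not measure flux through it.

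Levels are given as TPM, a length-scaled abundance, which divide the estimated reads of a gene by its effective length and scale all features of a library to a constant sum. Replicate 1 held 27901074 estimated counts and replicate 2 held 48490188. A count of 3 corresponds to 0.108 CPM, that is counts scaled to a fixed library total, in replicate 1 and 0.0619 in replicate 2. Protein-coding genes took 16.3% of the TPM in replicate 1 and 20.3% in replicate 2, so that their TPM values are shifted between the libraries by a log2 median of -0.29 (replicate 1 over replicate 2, genes with a mean of at least 1 TPM). Of 10 HSC and progenitor markers 9 had at least 1 TPM in both libraries. Cd34 had 145 TPM in replicate 1 and 166 in replicate 2, and Flt3 had 57.9 and 53.2. Meis1 had 42.7 and 52.1 TPM, Kit 36.4 and 45.1, Hlf 25.8 and 20.55, and Mecom 16.76 and 16.85. Procr had 12.7 and 14.7 TPM, Ly6a 12.9 and 12.35, and Fgd5 1.18 and 1.15, while Slamf1 (CD150) had 0.42 and 0.43. The list joins genes of stem cells and of progenitors, so the count does not tell these cells apart. All 8 neutrophil markers were also above 1 TPM, with a summed level of 3087 TPM in replicate 1 and 1164 in replicate 2. Those of monocytes and macrophages summed to 365 and 169 TPM, those of erythroid cells to 33.7 and 107 TPM, and those of megakaryocytes to 13.9 and 18.9 TPM. The B cell list summed to 5.02 and 3.26 TPM nearly all of it Cd79b at 4.89 and 3.25 TPM, with Pax5 at 0 in both libraries, and the T cell list to 3.16 and 2.82 TPM with Cd3g at 1.49 and 1.59 TPM, Cd4 at 1.61 and 1.19 TPM, and Trac and Cd8a at 0. In bulk RNA, fewer cells of a type and less RNA per cell cannot be told apart.

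With 1 group there was no comparison between conditions, and an exact sign-flip permutation over 2 libraries cannot give a p below 0.5, so no p is reported. A gene was called detected at 1 TPM or more in both libraries. Each value came with a lower and an upper bound in the authors' tables, which cover estimation and counting error within a library. A pair of genes was called ordered where one was higher in both libraries and their bounds did not overlap in either. Ratios of levels are given after a pseudocount of 0.1 was added to each value.

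Of the 38 genes 35 were detected, against 44.0% of all protein-coding genes. The 3 below the limit were Wipi1, Atg4d and Map1lc3a, and even these had 22 counts or more. Across all 38 the median percentile among protein-coding genes was 77.0 in replicate 1 and 77.2 in replicate 2, and in replicate 1 it ran from 49.0 for Map1lc3a to 98.4 for Sqstm1. Together they held 0.214% of protein-coding TPM in replicate 1 and 0.217% in replicate 2. The levels spread over a wide range: the order ran from Sqstm1 at a mean of 75.9 TPM to Map1lc3a at 0.695 TPM. Neighbours in it mostly did not differ beyond their bounds, since only 4 of 37 adjacent pairs were ordered, namely Sqstm1 over Gabarap, Gabarap over Becn1, Map1lc3b over Nbr1 and Atg4a over Atg10.

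**Figure D1:**
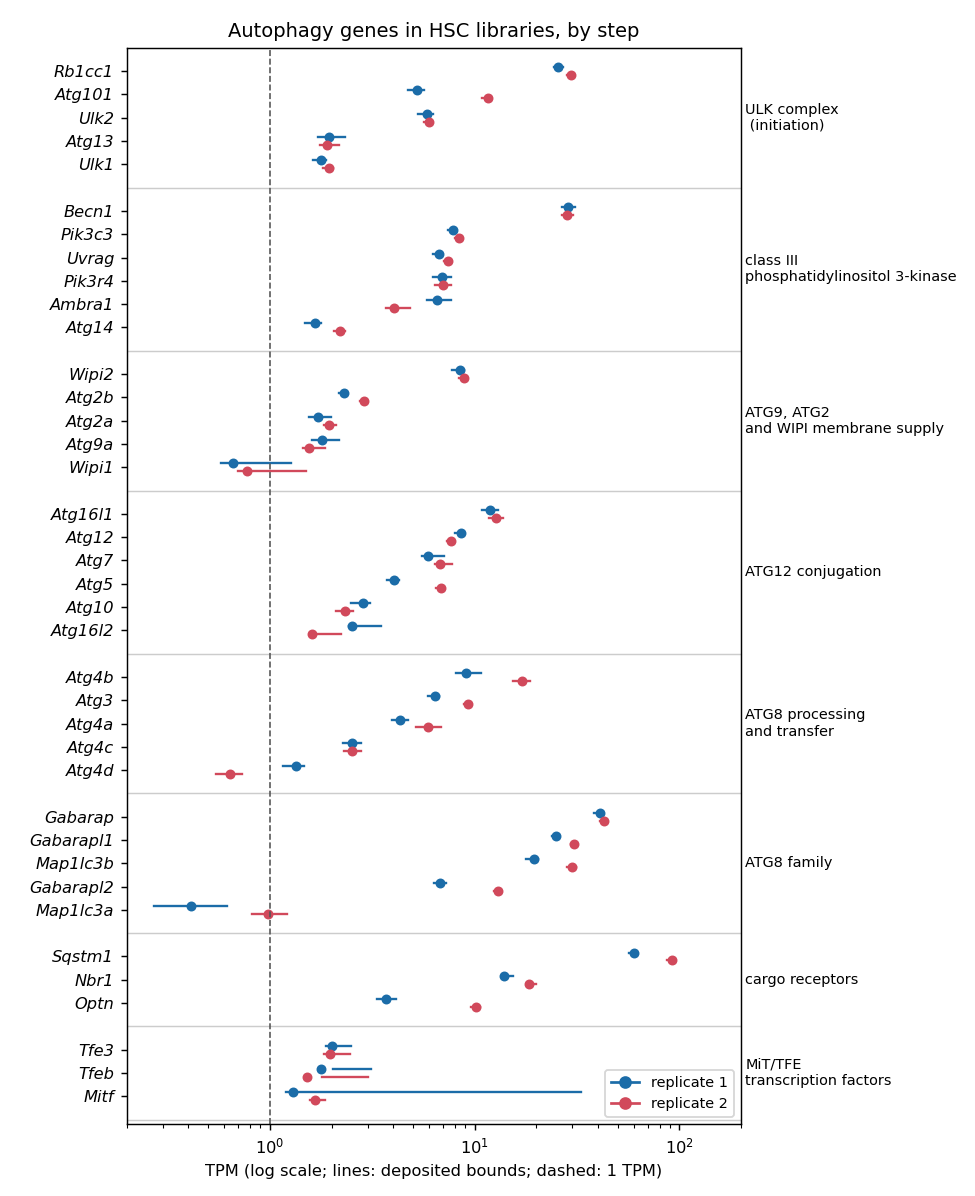
TPM of each of the 38 genes on a log axis, grouped by step, with a point for each library (replicate 1 above replicate 2) and a line for the deposited lower and upper bound. Sqstm1, Gabarap, Gabarapl1, Becn1 and Rb1cc1 stand at the right of their steps, and only Wipi1, Atg4d and Map1lc3a have a library below the dashed line at 1 TPM.

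In the ULK complex, which receives the nutrient signal and begins the process, all 5 genes were detected, and the scaffold stood well above the kinases. Rb1cc1, which encodes the scaffold FIP200 (chromosome 1, 6206197 to 6276648, plus strand, GRCm38), had 25.7 TPM in replicate 1 and 29.5 TPM in replicate 2. Ulk2, one of the kinase paralogues, had 5.83 and 5.98 TPM, and Ulk1 had 1.77 and 1.95 TPM. Ulk2 was thus 3.07 times Ulk1, a log2 ratio of Ulk1 over Ulk2 of -1.62 ± 0.07 (SD, n = 2 libraries), and the pair was ordered. Atg13, the adaptor between kinase and scaffold, had 1.94 and 1.91 TPM. Atg101, which stabilises Atg13, was the variable one, at 5.25 TPM in replicate 1 and 11.6 in replicate 2 with bounds of 4.71 to 5.64 and 10.9 to 12.1.

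The high level of Rb1cc1 came mostly from transcript models that do not encode the whole protein. Transcripts were sorted by their GENCODE M21 type into complete coding, partial coding (the annotated coding sequence is cut at an end of the model), nonsense-mediated decay, retained intron and other noncoding. Of Rb1cc1 TPM 8.18% in replicate 1 and 5.36% in replicate 2 lay in the complete coding model Rb1cc1-201, at 2.10 and 1.58 TPM. The leading model was Rb1cc1-214, 2204 bases long and annotated as a decay substrate, with 8.59 and 9.41 TPM. All of its bases lie within exons of Rb1cc1-212, so no base is its own. Partial coding models held a further 33.3% and 41.7% of the TPM. By counts, the complete coding model held 20.6% and 15.2% and the decay model 22.9% and 24.1%. Counted by complete coding models alone, Rb1cc1 was therefore near Ulk1 and Atg13 (1.42 and 1.59 TPM) and below Ulk2 (4.06 and 4.75 TPM) and Atg101.

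The class III kinase complex, which makes the phosphatidylinositol 3-phosphate that marks the site, was detected in all 6 genes, and over all models its lipid kinase, its regulatory kinase and the UVRAG subunit had similar levels. Pik3c3 (VPS34, the lipid kinase) had 7.88 and 8.37 TPM, and Pik3r4 (VPS15, its regulatory partner) had 6.93 and 7.02 TPM, with bounds that overlapped in at least 1 library, so the pair was not ordered. By complete coding models alone Pik3c3 had 6.58 and 8.29 TPM and Pik3r4 had 2.11 and 2.05 TPM, a ratio of 3.43. Uvrag, the subunit of the endosomal form of the complex, had 6.71 and 7.39 TPM. Atg14, which takes its place in the form that starts autophagosomes, had 1.66 and 2.21 TPM. Uvrag was 3.54 times Atg14, with an ordered pair and a log2 ratio of Atg14 over Uvrag of -1.82 ± 0.18 (SD, n = 2). Of the exon bases of Uvrag 17.6% are also exon bases of Gm45187, an antisense gene not analysed here.

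Becn1 (Beclin 1, the scaffold; chromosome 11, 101285952 to 101302286, minus strand) was the highest of the complex, with 28.6 TPM in replicate 1 and 28.1 in replicate 2. Its TPM again fell mainly on models without a complete coding sequence: retained introns took 45.1% and 50.2%, and decay models took 37.3% and 37.9%. By counts, decay models came first with 43.9% and 42.8%, before retained introns with 30.4% and 28.8%. Complete coding models took 24.9% and 27.9% of the counts. Complete coding models of Becn1 held 4.28 and 2.87 TPM, and 43.9% of its exon bases are also exon bases of Cntd1 on the other strand, a gene at 0.39 and 0.27 TPM. Ambra1, a Beclin 1 partner that also scaffolds ULK1 ubiquitination, had 6.54 TPM in replicate 1 and 4.03 in replicate 2. That difference was placed on the noncoding model Ambra1-207 of 663 bases, at 2.83 and 0.38 TPM. All bases of Ambra1-207 lie within exons of Ambra1-202, so no base is its own. By counts Ambra1 had 57.6 CPM in replicate 1 and 46.5 in replicate 2. The complete coding models of Ambra1 had 3.57 TPM in replicate 1 and 3.65 TPM in replicate 2.

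The genes of membrane supply were the lowest of the enzymatic and structural steps, and their median level was 1.79 TPM in replicate 1 against 1.94 in replicate 2, with 4 of 5 detected. Atg9a, the scramblase carried on ATG9 vesicles, had 1.79 and 1.55 TPM. The lipid transfer protein genes Atg2a, at 1.72 and 1.94 TPM, and Atg2b, at 2.31 and 2.87 TPM, were ordered with Atg2b 1.39 times Atg2a over all models. By complete coding models alone, where Atg2a had 0.50 and 0.32 TPM, Atg2b was 5.33 times Atg2a. Wipi2, the phosphoinositide reader that recruits ATG16L1, stood apart from this group with 8.44 and 8.83 TPM. It was 10.7 times its paralogue Wipi1, which had 0.66 and 0.77 TPM with bounds that crossed 1 TPM in both libraries (0.580 to 1.28 and 0.698 to 1.51).

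In the ATG12 conjugation system, which builds the ATG12-ATG5-ATG16L1 ligase, all 6 genes were detected. Atg12, the ubiquitin-like protein itself, had 8.60 TPM in replicate 1 and 7.69 in replicate 2, and Atg5, its acceptor, had 4.06 and 6.87 TPM. Atg12 was higher than Atg5 in both libraries, 1.53 times on average, although the log2 ratio of Atg5 over Atg12 differed between them, at -1.06 in replicate 1 and -0.16 in replicate 2. Atg7, the E1-like enzyme that activates both ATG12 and ATG8, had 5.95 and 6.76 TPM. Atg10, the E2-like enzyme of the ATG12 branch, had 2.84 and 2.34 TPM. Atg16l1, the subunit that places the ligase on the membrane, was the highest at 11.9 and 12.7 TPM and was 5.86 times Atg16l2 (2.51 and 1.61 TPM), or 3.74 times by complete coding models.

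Here too the transcript models matter for reading the levels. Atg5, Atg10 and Atg12 each have 1 model in the files, which is complete. Of Atg7 TPM 56.6% and 66.6% lay in Atg7-208, a partial coding model of 650 bases that overlaps exons 2 to 6 of the 19 exons of Atg7-201, although partial models took 17.9% and 22.8% of the Atg7 counts. Restricted to complete coding models, Atg7 had 2.38 and 2.26 TPM, close to Atg10, and the log2 ratio of Atg7 over Atg10 turned to -0.15, against 1.27 ± 0.32 (SD, n = 2) over all models. Retained introns held 67.3% and 78.0% of Atg16l1 TPM, which left 3.06 and 2.79 TPM in complete coding models of that gene.

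ATG8 processing joins the proteases that trim and recycle ATG8 proteins with the E2-like enzyme that transfers them to lipid. Atg3, that E2-like enzyme, had 6.39 TPM in replicate 1 and 9.29 in replicate 2, and was not ordered against the E1-like Atg7 over all models, while by complete coding models it was 3.08 times Atg7. Atg4b, the protease with the broadest activity on ATG8 proteins, was the highest of its family at 9.04 and 17.0 TPM. Atg4a had 4.30 and 5.95 TPM, Atg4c had 2.51 and 2.52 TPM, and Atg4d had 1.34 and 0.64 TPM. Over all models Atg4b was ordered above each, 2.42 times Atg4a, 4.78 times Atg4c and 12.1 times Atg4d. The last ratio was 6.35 in replicate 1 and 23.1 in replicate 2, and 1.88 by complete coding models.

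The first place of Atg4b depended on short models. Its only complete coding model, Atg4b-201 of 4173 bases, had 1.97 and 1.72 TPM, below the complete coding level of Atg4a (3.85 and 4.91 TPM) and of Atg4c (2.40 and 2.30 TPM). The partial model Atg4b-203 of 513 bases had 2.98 TPM in replicate 1 and 6.32 in replicate 2, and Atg4b-209 of 420 bases had 0 and 4.08 TPM. All bases of Atg4b-209 lie within exons of Atg4b-201, so no base is its own. By counts, Atg4b had 35.4 CPM in replicate 1 and 33.3 in replicate 2, so its 1.87-fold higher TPM in replicate 2 was absent before division by length.

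The ATG8 family showed the clearest contrast between paralogues: 4 of its 5 genes were among the more abundant of the set, and Map1lc3a (LC3A) was at the bottom. Gabarap had 40.8 TPM in replicate 1 and 43.1 in replicate 2, Gabarapl1 had 25.1 and 30.6 TPM, and Map1lc3b (LC3B) had 19.4 and 30.0 TPM. Gabarapl2 (GATE-16) had 6.78 and 13.1 TPM. Map1lc3a had 0.41 TPM from 22 counts in replicate 1 and 0.98 TPM from 104 counts in replicate 2, so Map1lc3b was 32.7 times as high, a log2 ratio of 5.03 ± 0.32 (SD, n = 2). With so low a gene the ratio depended on the setting. It was 15.1 with a pseudocount of 1, 74.2 for complete coding transcripts and 85.1 by CPM. All counts of Map1lc3a in replicate 1 were placed on a noncoding model, while the coding Map1lc3a-201 held 83.1% of its TPM in replicate 2. Among the GABARAP genes Gabarap was 1.51 times Gabarapl1 and 4.42 times Gabarapl2, and 1.73 times Map1lc3b. Each of these pairs was ordered over all models. The level of Gabarap in them rested mainly on Gabarap-202, with 76.8% of its TPM in replicate 1 and 78.2% in replicate 2. That model lacks the glycine at which ATG4 cleaves, and Gabarap-201, which ends at it, held 18.5% and 20.2%. Per read and without division by length, the first and the last of those ratios turned round, with log2 values of -0.65 and -0.61 by CPM. The leading model of Gabarap is 750 bases long, that of Gabarapl1 1765 and that of Map1lc3b 2532.

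The 5 family members carry the same working part at their C terminus: ATG4 cleaves after a glycine, which is then joined to the lipid. The last 60 coding bases are shown because they hold that codon and let the genes be compared base by base. They are from GENCODE M21 transcripts on GRCm38, 5′ to 3′ on the coding strand (plus for all 5 genes), with the glycine codon in capitals where the model ends at it.
Gabarap-201: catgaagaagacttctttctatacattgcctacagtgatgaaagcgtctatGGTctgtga
Gabarapl1-201: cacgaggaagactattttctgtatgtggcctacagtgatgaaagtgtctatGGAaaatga
Gabarapl2-201: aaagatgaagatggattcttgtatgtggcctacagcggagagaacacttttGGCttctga
Map1lc3a-201: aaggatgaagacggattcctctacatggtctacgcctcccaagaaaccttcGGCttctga
Map1lc3b-201: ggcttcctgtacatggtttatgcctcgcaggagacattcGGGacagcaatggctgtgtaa
Gabarap-202: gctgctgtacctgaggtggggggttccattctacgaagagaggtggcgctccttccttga

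In the GABARAP genes and in Map1lc3a 1 codon follows the glycine before the stop, and in Map1lc3b 5 do. Across the whole coding sequence Map1lc3a and Map1lc3b were 77.5% identical and Gabarap and Gabarapl1 74.9%, the closest pairs, while Gabarapl1 and Map1lc3a were the most distant at 57.4%. The closest pair in sequence, the LC3 genes, was thus far apart in level, 32.7-fold as reported and 15.1-fold to 85.1-fold under other settings. Over all 38 genes the posterior SD that the authors deposited for the gene count was at most 1.02% of the count.

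Most Gabarap TPM was placed on Gabarap-202 (76.8% in replicate 1 and 78.2% in replicate 2) and less on Gabarap-201 (18.5% and 20.2%). Gabarap-202 is 750 bases long and all of its bases lie in exons of the 1351-base Gabarap-201, but it joins exon 2 to a later point of exon 3. It therefore shares the first 170 coding bases with Gabarap-201, changes frame and ends as shown above, without that last glycine, after 106 codons in place of 117. Every base of Gabarap-202 is also in Gabarap-201, so the models differ by a junction and by their ends, and the tables hold no junction reads. Map1lc3b was split between Map1lc3b-201 (44.0% and 45.9%) and Map1lc3b-205 (38.2% and 35.9%), which has a longer second exon and the same last 60 coding bases. Gabarapl1 has 1 model, and Gabarapl2 was all but entirely on its coding model.

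All 3 cargo receptor genes were detected, and one of them was the highest of all 38. Sqstm1 (p62, the receptor for ubiquitinated aggregates and an activator of the oxidative stress response; chromosome 11, 50199366 to 50210827, minus strand) had 60.2 TPM in replicate 1 and 91.6 in replicate 2, or percentiles of 98.4 and 98.7 among protein-coding genes. Nbr1, which acts with p62 on aggregates, had 13.9 and 18.5 TPM. Optn (optineurin, a receptor for damaged mitochondria and bacteria) had 3.70 TPM in replicate 1 and 10.2 in replicate 2. Sqstm1 was 4.60 times Nbr1 and 11.9 times Optn, and Nbr1 was 2.59 times Optn, and all 3 pairs were ordered in both libraries.

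The lead of Sqstm1 rested on short retained-intron models. Retained introns held 65.5% of its TPM in replicate 1 and 74.9% in replicate 2, but 31.3% and 33.8% of its counts. Sqstm1-203 of 582 bases had 30.1 and 28.4 TPM, and Sqstm1-206 of 457 bases had 8.07 TPM in replicate 1 and 39.9 in replicate 2. Of their bases 85.1% and 81.6% lie within exons of the coding model Sqstm1-202, which had 11.8 and 14.7 TPM. Complete coding models together gave 13.6 and 16.8 TPM for Sqstm1, 7.78 and 14.4 TPM for Nbr1, and 3.0 and 6.64 TPM for Optn. On these Sqstm1 was 1.42 times Nbr1 and 3.32 times Optn. By CPM, which divides by no length, Sqstm1 had 142 in replicate 1 and 145 in replicate 2 and Nbr1 had 145 and 172, so that the order of these genes turned round, while Optn stayed lowest at 23.8 and 53.6.

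**Figure D2:**
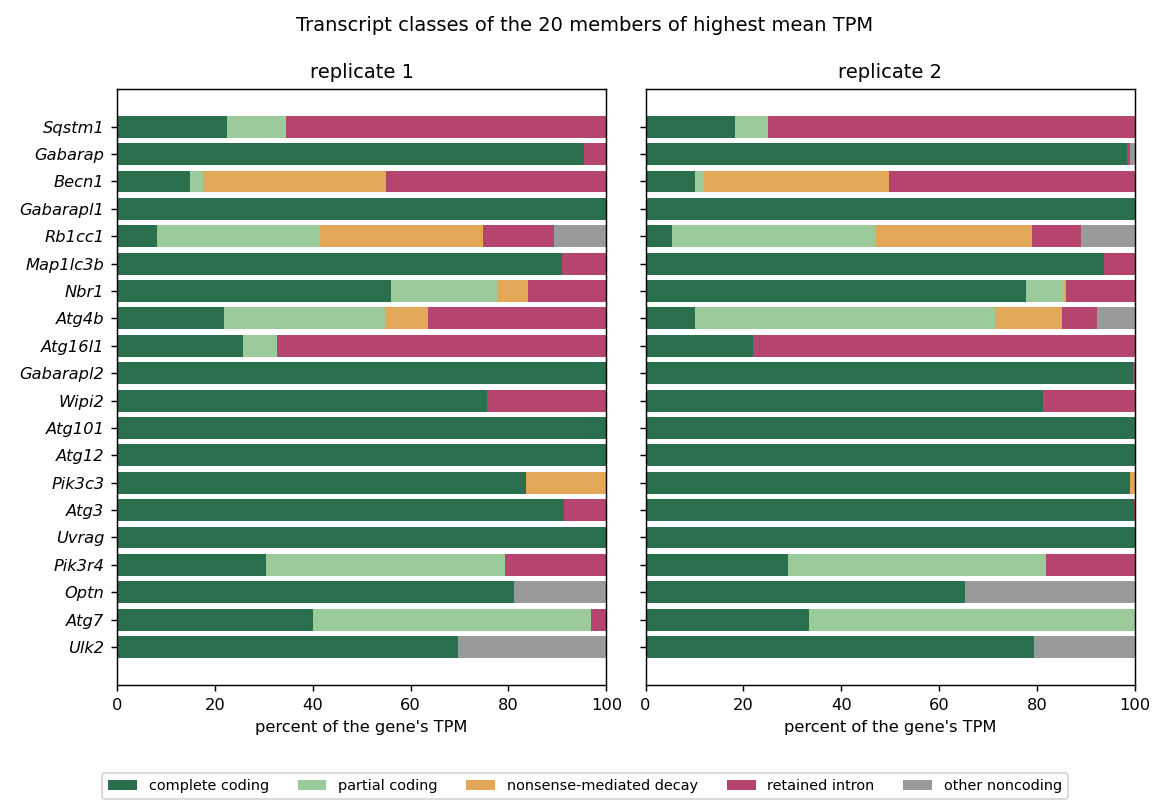
Percent of each gene's TPM in transcripts of each GENCODE M21 class, for the 20 genes of highest mean TPM, in replicate 1 (left) and replicate 2 (right). The bars of Sqstm1, Becn1, Rb1cc1, Atg4b and Atg16l1 are mostly outside the complete coding class in both libraries, while those of Gabarap, Gabarapl1, Map1lc3b and Gabarapl2 are mostly inside it. Most of the Gabarap bar is Gabarap-202, a complete coding model that lacks the glycine at which ATG4 cleaves.

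Over the whole set, 28 of the 38 genes have several transcript models and 10 have 1. The leading model was the same in both libraries for 19 of the 28, and for 75.0% of detected protein-coding genes with several models. Complete coding models held a median of 86.5% of the TPM per gene in replicate 1 and 86.9% in replicate 2, and at least 90% in both libraries for 17 genes. For 10 genes they held under 50% in both, against 11.3% of detected protein-coding genes. These 10 were Rb1cc1, Becn1, Pik3r4, Atg9a, Atg2a, Atg7, Atg16l1, Atg16l2, Atg4b and Sqstm1. Summed over the set, retained introns took 23.0% of the TPM in replicate 1 and 24.3% in replicate 2.

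The MiT/TFE factors, master regulators of lysosomal and autophagy genes, were all detected at low and similar levels. Tfe3 had 2.02 and 1.97 TPM, Tfeb had 1.77 and 1.52 TPM, and Mitf had 1.29 and 1.66 TPM. None of the 3 pairs among them was ordered, and the sign of each ratio turned under other settings. The bounds of Mitf in replicate 1 ran from 1.197 to 32.9 TPM, and the Tfeb values lay below their own lower bounds of 2.04 in replicate 1 and 1.79 in replicate 2, so the levels of these genes are uncertain.

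Promoters were searched for CACGTG, the core of the E-box at which MiT/TFE factors are known to bind, and for TCACGTGA, its longer form, which contains it. Both read the same on either strand. RefSeq windows from 250 bases before to 50 after the start were at hand for 32 of the 38 genes. Atg3, Atg5, Atg7 and Atg14 held CACGTG, that is 12.5%, against 8.09% of 27025 genes with a window, and Atg3 also held TCACGTGA, which 1.12% of genes held. The stretches around the matches are shown because they are the only ones in the set, 5′ to 3′ on the strand of the gene (GRCm38.p6), with the core in capitals.
Atg3, chr16:45158708-45158790, plus: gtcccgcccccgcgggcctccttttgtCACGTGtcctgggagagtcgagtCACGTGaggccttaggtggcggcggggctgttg
Atg5, chr10:44268298-44268338, plus: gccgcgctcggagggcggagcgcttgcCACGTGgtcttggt
Atg7, chr6:114670937-114670996, plus: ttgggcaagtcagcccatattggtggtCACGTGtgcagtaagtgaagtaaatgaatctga
Atg14, chr14:47568418-47568447, minus: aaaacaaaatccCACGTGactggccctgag
The matches begin 94 and 71 bases upstream of the RefSeq start in Atg3, 14 in Atg5, 132 in Atg7 and 1 in Atg14. For Atg7 and Atg14 that start lies 27999 and 2215 bases inside the GENCODE gene. A match describes these letters alone, and no binding was measured.

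Initiation (the 5 ULK complex genes), lipidation (the 11 genes of ATG12 conjugation and ATG8 processing) and cargo receptors (3 genes) were then compared by their median. Cargo receptors had the highest median, with 13.9 and 18.5 TPM. Lipidation had 4.30 and 6.76 TPM, and initiation had 5.25 and 5.98 TPM. Detected protein-coding genes had medians of 5.84 and 7.16 TPM. Over all models, initiation and lipidation (with the undetected Atg4d) thus lay under the typical detected gene and the receptors above it.

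The receptors exceeded initiation by 1.502 ± 0.16 and lipidation by 1.56 ± 0.16 on the log2 scale (SD, n = 2 libraries; pseudocount 0.1), which is 2.83-fold and 2.94-fold. Both differences were several times their spread between libraries, but that spread leaves out the spread between the genes of a step. Gene means ran from 1.86 to 27.6 TPM in initiation and from 6.93 to 75.9 TPM in receptors. The median of 3 genes is the level of 1 of them, Nbr1, which was below Rb1cc1 of initiation in both libraries. Optn was below Atg101 in both libraries. Lipidation and initiation differed by -0.05 ± 0.32, less than the spread, with opposite signs in the libraries (-0.28 in replicate 1 and 0.17 in replicate 2). The ATG8 substrates of lipidation, with a median of 19.4 and 30.0 TPM, stood above that of the enzymes that act on them. Among the remaining steps the class III kinase complex had a median of 6.82 and 7.21 TPM, and the MiT/TFE factors had 1.77 and 1.66 TPM.

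With complete coding models alone the receptors were still highest, with medians of 7.78 (replicate 1) and 14.4 TPM (replicate 2). Lipidation was at 2.84 and 2.34 TPM, and initiation at 2.10 and 1.95 TPM. Detected protein-coding genes had medians of 4.39 and 5.39 TPM by these models, so initiation and lipidation lay further under the typical detected gene. The receptors then exceeded initiation by 2.33 ± 0.69 and lipidation by 2.00 ± 0.81 (log2, SD, n = 2). Lipidation was then above initiation by 0.33 ± 0.12, and in both libraries, while over all models the libraries gave opposite signs. This alternative was chosen after the transcript classes had been seen.

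**Figure D3:**
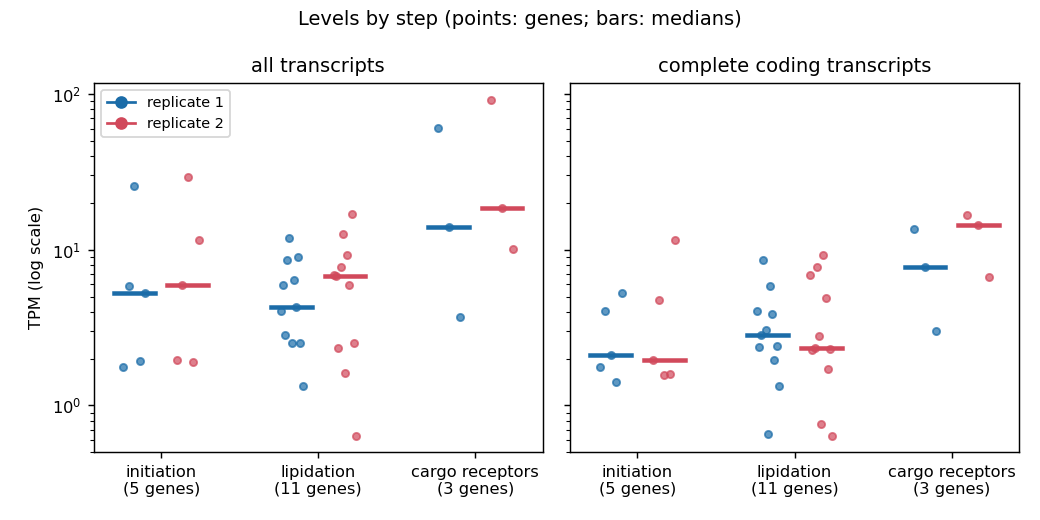
TPM on a log axis of the genes of initiation, lipidation and cargo receptors, with a point for each gene and library and a bar for the median, over all transcripts (left) and over complete coding transcripts (right). The receptor medians, 13.9 and 18.5 TPM at left and 7.78 and 14.4 TPM at right, are the highest in both panels, while initiation and lipidation overlap.

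Between the replicates 10 of the 38 genes were higher in replicate 1 and 28 in replicate 2. The median log2 ratio of replicate 1 over replicate 2 was -0.15 for the set, against -0.29 for protein-coding genes with a mean of at least 1 TPM, so relative to that shift 24 genes lay above and 14 below. By CPM the medians were 0.09 for the set and -0.05 for those genes. The bounds did not overlap for 20 genes. Of these 16 were higher in replicate 2, where 55.2% of all genes with a mean of at least 1 TPM were so, and 4 were higher in replicate 1, where 15.5% were. The 4 were Ambra1, Atg12, Atg16l2 and Atg4d. Among the 20, Atg4d and Map1lc3a have a mean under 1 TPM.

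A stricter call asked for a mean of at least 1 TPM, more than 2-fold and bounds apart. It found 0 of 35 genes higher in replicate 1 (4.18% of all 10958 genes were) and 2 higher in replicate 2 (7.36% of all were). Optn was 2.70-fold higher in replicate 2 by TPM and 2.25-fold by CPM, from 665 counts in replicate 1 and 2601 in replicate 2, and 2.21-fold relative to the median shift. Atg101 was 2.19-fold higher in replicate 2 by TPM, 1.81-fold by CPM and 1.79-fold relative to the shift, so it passed by TPM over all features and not by CPM. Atg16l2 passed by CPM, with 12.1 in replicate 1 and 5.36 in replicate 2, and not by TPM. Of its counts 58.0% in replicate 1 and 0% in replicate 2 were placed on decay models. Its complete coding models had 0.66 TPM in replicate 1 and 0.76 in replicate 2. Calls by CPM took bounds from counting error alone. Atg4d, with 1.34 TPM in replicate 1 and 0.64 in replicate 2, was 1.95-fold higher in replicate 1 by TPM, 2.43-fold by CPM and 2.38-fold relative to the shift. It was not called, with a mean under 1 TPM and a fold below 2 by TPM. Without the pseudocount that fold is above 2. Of the Atg4d exon bases 19.3% lie in exons of Kri1 on the other strand, a gene with 10.4 and 20.1 TPM. Beside these, neutrophil markers were higher in replicate 1 (5 of 8 by the same call) and erythroid markers in replicate 2 (4 of 8). The mean fragment was 193 bases in replicate 1 and 245 in replicate 2, inferred from the difference between the length and effective length of genes. The part of cell types or of fragment length in the ratios of Optn, Atg101, Atg16l2 and Atg4d was not tested.

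**Figure D4:**
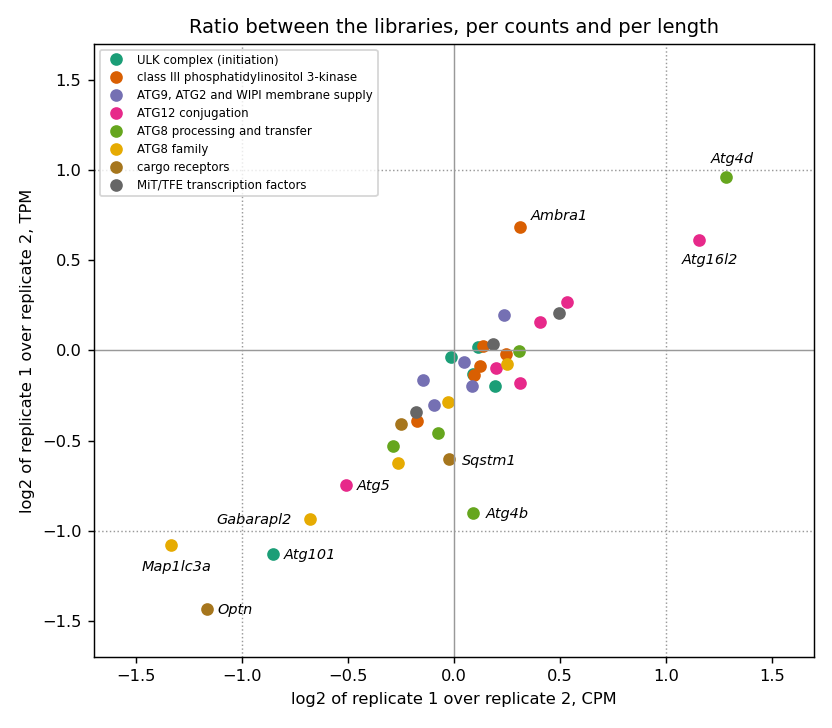
Log2 ratio of replicate 1 over replicate 2 of each gene by CPM (horizontal) and by TPM (vertical), coloured by step, with dotted lines at 2-fold. Optn lies beyond 2-fold on both axes among genes with a mean of at least 1 TPM, Atg101 on the TPM axis only and Atg16l2 on the CPM axis only, while Atg4b is near 0 by CPM and low by TPM.

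The pathway around the set was read from 67 further genes in 6 lists, of which 58 were detected, against 44.0% of all protein-coding genes. All 14 other cargo receptors were, from Tax1bp1 (a ubiquitin-binding receptor) at 60.5 TPM in replicate 1 and 72.5 in replicate 2 and the mitochondrial Phb2 at 40.8 and 54.2 TPM down to Wdfy3 at 3.10 and 4.55 and the endoplasmic reticulum receptor Tex264 at 4.52 and 2.84 TPM. All 10 other early factors were detected too, led by Wac at 35.5 and 54.9 TPM and the membrane protein Vmp1 at 22.1 and 41.4 TPM, with Zfyve1 at 2.81 and 2.60 and Rubcn at 2.63 and 2.64 TPM the lowest. The receptor genes outside the set had a median of 13.5 and 18.2 TPM, close to that of Sqstm1, Nbr1 and Optn.

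Upstream, 11 of 14 mTORC1 and TSC genes were detected, with Rheb, the GTPase that activates mTORC1, at 8.75 and 10.7 TPM and Rragc at 6.25 and 9.93 TPM. Rragd was at 0.09 and 0.07 TPM and Deptor, an mTOR inhibitor, at 0.69 and 1.67 TPM. Of the AMPK and LKB1 genes 7 of 10 were detected, with Stk11 (LKB1), which blood stem cells are known to need, at 15.6 and 25.9 TPM and its scaffold Cab39 at 15.7 and 22.9 TPM. The AMPK subunit gene Prkaa2 had 0.28 and 0.40 TPM and Prkag3 no count in either library.

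Downstream, 12 of 14 fusion genes were detected. The SNARE gene Vamp8 had 67.9 and 55.2 TPM and Vps16 had 23.1 and 26.1 TPM, while Plekhm1 had 0.82 and 0.83 TPM and Tecpr1 had 1.84 and 0.98 TPM. In the list around Pink1, the kinase that marks damaged mitochondria, Pink1 had 10.9 and 10.4 TPM. The deubiquitinase genes Usp15 and Usp30 of that list had 25.4 and 29.9 TPM and 1.33 and 1.64 TPM. Between the replicates 2 of the 67 genes passed the stricter call, which is open only to genes with a mean of at least 1 TPM. Both were higher in replicate 2, where 7.36% of all 10958 such genes were called. None was called higher in replicate 1, where 4.18% of all were. The genes called were Deptor and Tbc1d7, a TSC subunit with 0.60 and 1.84 TPM that is named after its values were seen.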

How the data were processed

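Total RNA of 2 HSC libraries was quantified by the submitters per gene and per transcript. Per the file headers, the authors' tables give expected counts (estimated reads, not whole), TPM, FPKM, a percent of each gene's TPM per transcript, and bounds and posterior SDs, which are treated here as scores on the TPM and count scales. FPKM values were deposited but not used. The text files deposited beside the tables name mm10 and GENCODE M4. No source used here names the aligner or the counter.

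Gene and transcript IDs without version were matched to GENCODE M21 (GRCm38) for symbols, positions and transcript classes, so a class can differ from that in M4. Promoter windows came from RefSeq (GRCm38.p6). CPM is the expected count over the library total. The floor of 3 counts covers counting error only. TMM and DESeq2 size factors (edgeR 4.0.16, DESeq2 1.42.0, on rounded counts, 10 or more in both libraries) served as alternatives for the comparison between replicates, with bounds from counting error alone. Scripts ran in Python 3.11.15 with pandas 2.3.3 and were tested on simulated data.

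The genes, lists and pairs (24) were chosen with earlier results of these data known, and so were the markers. Of the further lists the 2 genes of highest and the 2 of lowest mean TPM are named, except 1 that is not reported here. No source used here says whether reads were counted by strand, so Becn1, Sqstm1, Gabarapl1, Atg4d and Uvrag, which share at least 10% of their exon bases with a gene on the other strand, are uncertain, as is Atg9a, which shares them on its own strand.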

Additional observations from a re-analysis of the deposited data

How the results depend on the processing

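Over the alternatives the number of detected genes lay between 26 (at 2 TPM) and 38, with 32 for complete coding transcripts, and that of the wider lists between 58 and 65. The pseudocount does not enter the step medians. Other units moved the medians as their scale does: initiation was 29.1 by CPM and 30.9 as TPM over protein-coding genes, lipidation 26.3 and 29.9, and receptors 144 and 88.4. Complete coding transcripts gave 2.03, 2.59 and 11.1 TPM for initiation, lipidation and receptors. The mean of log2 values gave 20.3 TPM for receptors, and initiation with the class III kinase genes was 6.78 TPM. Receptors minus initiation was 2.30 by CPM, 1.82 by the mean of log2 values, 2.33 for complete coding transcripts and 1.23 with the class III kinase genes. Receptors minus lipidation was 2.44, 2.05 and 2.00 under the first 3 of these and 1.25 with the ATG8 family in lipidation. Lipidation minus initiation changed sign to 0.33 for complete coding transcripts, to 0.25 with the ATG8 family, and to 0.17 without replicate 1, against -0.28 without replicate 2.

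At a fold of 1.5 the number of genes apart between replicates was 9 (Ambra1 and Atg16l2 higher in replicate 1; Atg101, Atg5, Atg4b, Map1lc3b, Gabarapl2, Sqstm1 and Optn in replicate 2). Optn was called under all 8 alternatives of that count, and Atg16l2 replaced Atg101 by CPM, TMM and DESeq2 scaling. As TPM over protein-coding genes, Ambra1 and Atg4d were called higher in replicate 1. The share of protein-coding TPM was 0.219% by posterior mean TPM and 0.240% by counts, and the median complete coding percent was 78.9 by posterior mean. Of the 24 pairs, 19 were ordered, and 19 and 21 with a library left out. Pair ratios turned round to -1.20 (Atg4b over Atg4a), -0.34 (Atg4b over Atg4c) and -0.15 (Atg7 over Atg10) for complete coding transcripts, and to -0.65 (Gabarap over Gabarapl1), -0.61 (Gabarap over Map1lc3b) and -0.14 (Sqstm1 over Nbr1) by CPM. The MiT/TFE pairs, not ordered over all models, turned as well: Tfe3 over Tfeb to -0.19 by posterior mean TPM and -0.50 for complete coding transcripts, Tfe3 over Mitf to -1.06 by posterior mean TPM, -0.24 for complete coding transcripts and -0.20 by CPM, and Tfeb over Mitf to -0.87 by posterior mean TPM, -0.77 by CPM and -0.12 without replicate 1. Of 144 pair values under an alternative, 14 changed sign and 35 moved by over 1.5 times, among them 13 of 24 for complete coding transcripts and 15 by CPM. The cause was not tested. No paired analysis was possible because there is 1 group.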
